A study of Mus musculus with 14 samples.

Results

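The genes described here are neighbours on the proximal part of mouse chromosome 13, from Vps41 and Stard3nl through Elmo1 and Ly86 to Kif13a and Dek. They were picked by name from this stretch because Ly86 and some neighbours had been seen to be lower in germ-free (GF) than in specific-pathogen-free (SPF) microglia, so the difference between GF and SPF in these genes is given as a description and supports nothing by itself. The list named 56 genes, of which 53 were among the 14104 genes of the table. Epdr1, Gpr141 and Serpinb1a were not analysed here. The table writes symbols in capitals (STARD3NL, ELMO1, LY86, JARID2, GMPR, KIF13A) and lists Mcur1 and Fam8a1 under the older CCDC90A and C78339. Of the 53, 40 had a mean of at least 7.22 normalized counts and entered the fit, and 13 were below it.

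Microglia, the resident macrophages of the brain, came from C57BL/6 mice of 6 to 8 weeks that were kept germ-free, without any microorganisms, or under SPF conditions, with no further treatment. There were 7 libraries per group, each from 1000 cells of a brain per the series design. The cells were sorted as CD11b-positive with low CD45, and the 3' ends of polyadenylated RNA were sequenced. The labels give neither sex, litter, cage nor the breeding source of the SPF and GF colonies, so housing and colony of origin cannot be told apart, and nothing states that each library came from a separate animal.

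Neighbouring genes on a chromosome need not share a function, and the members here span innate immunity, endosomes, mitochondria, chromatin and the nuclear pore. Ly86 encodes MD-1, a secreted protein that binds the Toll-like receptor homologue CD180 (RP105) and is needed for its display on the cell surface. Elmo1 encodes an adaptor that, together with DOCK proteins, activates the GTPase Rac when phagocytes engulf apoptotic cells. Both processes are known from macrophages, and microglia use the second to clear dying cells during brain development.

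The promoters of Ly86, Mcur1 and Jarid2 are shown because the SPF and GF libraries did not overlap in these genes, and that of Ranbp9, the tested neighbour just before Mcur1, because its libraries did. They are the 250 bases before the annotated start, 5' to 3', from RefSeq on build GRCm38.p6, while the reads had been aligned to mm9. Stard3nl, whose libraries did not overlap either, had no entry. Jarid2 has 2 entries, of which the first is shown. Capitals mark GGGCGG or its reverse complement CCGCCC, the GC box. They also mark GGAAGT or ACTTCC, a sequence that ETS factors such as PU.1 can bind. Other sequences that ETS factors bind were not searched. Overlapping matches run together.
Ly86, chr13:37345095-37345344, plus strand: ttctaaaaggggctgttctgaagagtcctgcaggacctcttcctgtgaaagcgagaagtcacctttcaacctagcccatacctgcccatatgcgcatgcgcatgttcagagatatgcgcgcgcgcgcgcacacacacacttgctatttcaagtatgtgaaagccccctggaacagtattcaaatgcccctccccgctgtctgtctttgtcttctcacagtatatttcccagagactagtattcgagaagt
Mcur1, chr13:43560192-43560441, minus strand: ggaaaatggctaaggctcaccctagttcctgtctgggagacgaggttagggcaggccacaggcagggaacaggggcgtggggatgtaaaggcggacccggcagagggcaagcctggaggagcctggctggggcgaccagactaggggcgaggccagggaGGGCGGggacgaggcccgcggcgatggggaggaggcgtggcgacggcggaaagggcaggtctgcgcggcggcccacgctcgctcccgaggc
Ranbp9, chr13:43480974-43481223, minus strand: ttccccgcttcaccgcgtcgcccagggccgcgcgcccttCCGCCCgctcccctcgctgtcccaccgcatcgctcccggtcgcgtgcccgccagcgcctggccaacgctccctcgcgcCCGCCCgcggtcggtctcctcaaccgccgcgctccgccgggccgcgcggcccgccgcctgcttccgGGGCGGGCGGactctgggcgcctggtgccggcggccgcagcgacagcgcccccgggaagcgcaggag
Jarid2, chr13:44730524-44730773, plus strand: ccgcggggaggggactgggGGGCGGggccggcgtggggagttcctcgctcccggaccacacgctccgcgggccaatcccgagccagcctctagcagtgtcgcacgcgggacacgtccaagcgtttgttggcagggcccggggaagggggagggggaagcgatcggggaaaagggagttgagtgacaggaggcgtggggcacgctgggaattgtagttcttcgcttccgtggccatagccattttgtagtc
No GGAAGT or ACTTCC lay in any of these windows, and the GC box was matched 0 times in Ly86, 1 time in Mcur1, 4 times in Ranbp9 and 1 time in Jarid2. Over all 32851 RefSeq promoter windows of this length, 19.7% held GGAAGT or ACTTCC and 32.7% the GC box. Among the 64 windows of the 45 members with an entry, 9 held the first and 37 the second. A match or its absence says only which letters lie in the window.

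Depth was 1307910 ± 223669 read equivalents in SPF and 1078280 ± 180631 in GF (n = 7 per group, ± SD, exact permutation p = 0.0542, two-sided), and GF libraries listed more genes at 0, 25.2% ± 1.55 against 21.9% ± 1.58 (n = 7 per group, ± SD, exact permutation p = 0.00233). The label of the cells was checked against markers. The 12 microglia markers summed to 44255 to 52498 normalized counts in SPF and 48487 to 55882 in GF. The markers of monocytes and neutrophils, with 4 of 7 in the table, summed to at most 11.5 and 9.89, and those of border macrophages, 4 of 6 in the table, to 2.83 to 40.2 in SPF and 0 to 21.8 in GF. Endothelial markers, 5 of 5, summed to 66.2 to 98.6 in SPF and 17.4 to 81.2 in GF, and their part in the results below was not tested. Neuron markers, 5 of 5, reached at most 28.3, the B and T cell markers 107, with 3 of 7 found, oligodendrocyte markers, 5 of 5, 127, and astrocyte markers, 5 of 5, 255, with overlapping groups in each.

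Of the 40 tested members, 8 were lower in GF with an adjusted p under 0.05 in the fit over all genes, and 0 were higher. Over all 8762 genes tested, 3.02% were called lower and 3.65% higher, 265 and 320 genes, a balance that became 335 and 243 with upper-quartile scaling. The contrast had served to choose the members, so nothing is read from that comparison. The 8 members were Stard3nl, Elmo1, Ly86, Mcur1, Jarid2, Gmpr, Fam8a1 and Kif13a, and their log2 differences lay between -2.28 and -0.61. Fam8a1, which sets the lower end, met the filter only through its SPF libraries, so its call supports nothing. The median over the 40 tested members was -0.25, against -0.02 over all genes tested, and 30 of the 40 had a negative difference, against 51.5% of all genes tested. In bulk libraries, less RNA per cell and fewer cells that hold it cannot be told apart.

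**Figure D1:**
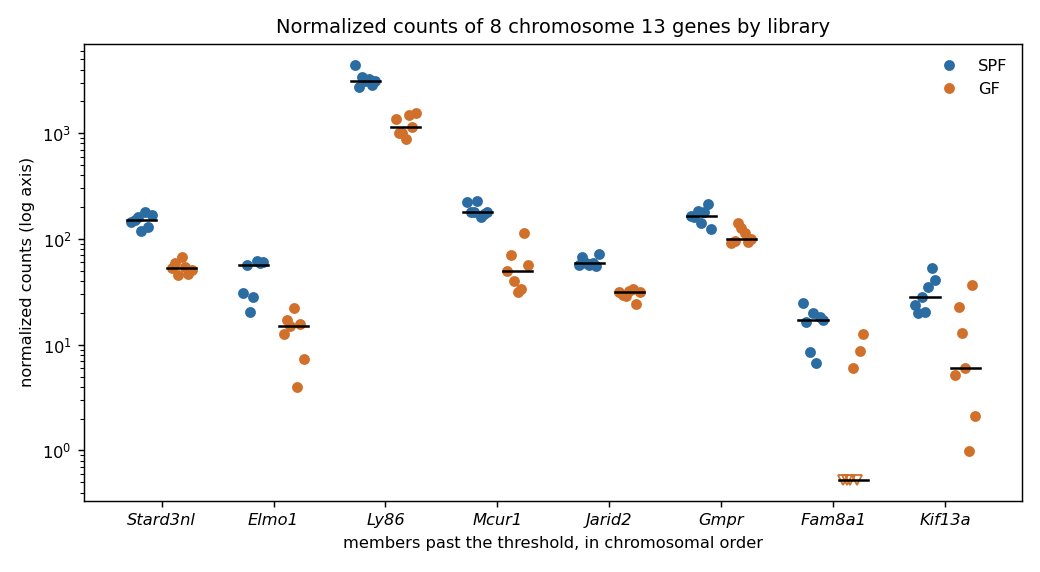
Normalized counts (log axis) of the 8 members past the threshold, in chromosomal order, with 1 point per SPF or GF library, a bar at each group's median and open triangles for libraries listed at 0. The groups are apart in Stard3nl, Ly86, Mcur1 and Jarid2 and overlap in Elmo1, Gmpr, Fam8a1 and Kif13a.

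Ly86 was the most abundant member. Its SPF libraries ran from 2720 to 4439 normalized counts with a median of 3135, and its GF libraries from 883 to 1559 with a median of 1133. Every GF library therefore lay below every SPF library. The means were 3275 ± 560 and 1208 ± 268 (n = 7 per group, ± SD), so GF stood at 36.9% of SPF, with a log2 difference of -1.45 ± 0.12 (SE). The nearest tested genes on either side were not called. Fars2, just before it, encodes the mitochondrial phenylalanyl-tRNA synthetase and had a log2 difference of -0.43 ± 0.37 (SE). Rreb1, just after it, encodes a zinc finger transcription factor and had 0.06 ± 0.22 (SE) in its most abundant row, though a scarcer row of it differed by -1.93. F13a1, the gene of coagulation factor XIII A and a marker of other macrophages, lies between Fars2 and Ly86 and was listed at 0 in 6 SPF and all 7 GF libraries.

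At the proximal end, Stard3nl and Elmo1 were consecutive among the tested genes. Stard3nl, which encodes a late endosomal membrane protein, ran from 119 to 178 in SPF with a median of 151 and from 45.8 to 67.6 in GF with a median of 53.1. The groups did not overlap, and the log2 difference was -1.45 ± 0.15 (SE). Elmo1 ran from 20.4 to 61.5 in SPF with a median of 56.8 and from 3.98 to 22.2 in GF with a median of 14.9. Here the highest GF library lay above the lowest SPF library, and the log2 difference was -1.69 ± 0.35 (SE).

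The distal end held the other 5 called members. Mcur1, which encodes a regulator of the mitochondrial calcium uniporter, ran from 161 to 229 in SPF with a median of 181 and from 31.3 to 113 in GF with a median of 49.96. The log2 difference was -1.84 ± 0.21 (SE). Jarid2, an accessory subunit of the histone methyltransferase complex PRC2, ran from 55.4 to 72.8 in SPF with a median of 58.6 and from 24.3 to 33.8 in GF with a median of 31.2. Its groups were narrow and apart, with SDs of 6.57 and 3.09 (n = 7 each) and a log2 difference of -0.98 ± 0.19 (SE).

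Gmpr, which encodes guanosine monophosphate reductase of purine salvage, had the smallest difference of the 8, at -0.61 ± 0.15 (SE). It ran from 123 to 215 in SPF with a median of 164 and from 91.6 to 141 in GF with a median of 98.8, so the groups overlapped. Fam8a1, whose product sits with the HRD1 ubiquitin ligase in the endoplasmic reticulum, was scarce. It ran from 6.75 to 24.8 in SPF with a median of 16.96, and in GF it was listed at 0 in 4 of 7 libraries and reached 12.6. Its log2 difference of -2.28 ± 0.60 (SE) depends on the pseudocount, ranging from -3.57 to -1.13 over the settings tried. Kif13a, a kinesin motor of endosomal transport, ran from 20.1 to 53.2 in SPF with a median of 28.5 and from 0.995 to 36.5 in GF with a median of 6.05. The GF libraries were widely spread, and the log2 difference of -1.77 ± 0.49 (SE) no longer passed in 7 of 24 other settings.

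Without any 1 of SPF 5, SPF 6, SPF 7, GF 5 and GF 7, Kif13a was not called (log2 differences -1.73, -1.63, -1.69, -1.45 and -1.54). Gmpr was not called without GF 1, GF 6 and SPF 2 together (-0.53). The other 6 stayed past the threshold in all 24 settings.

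**Figure D2:**
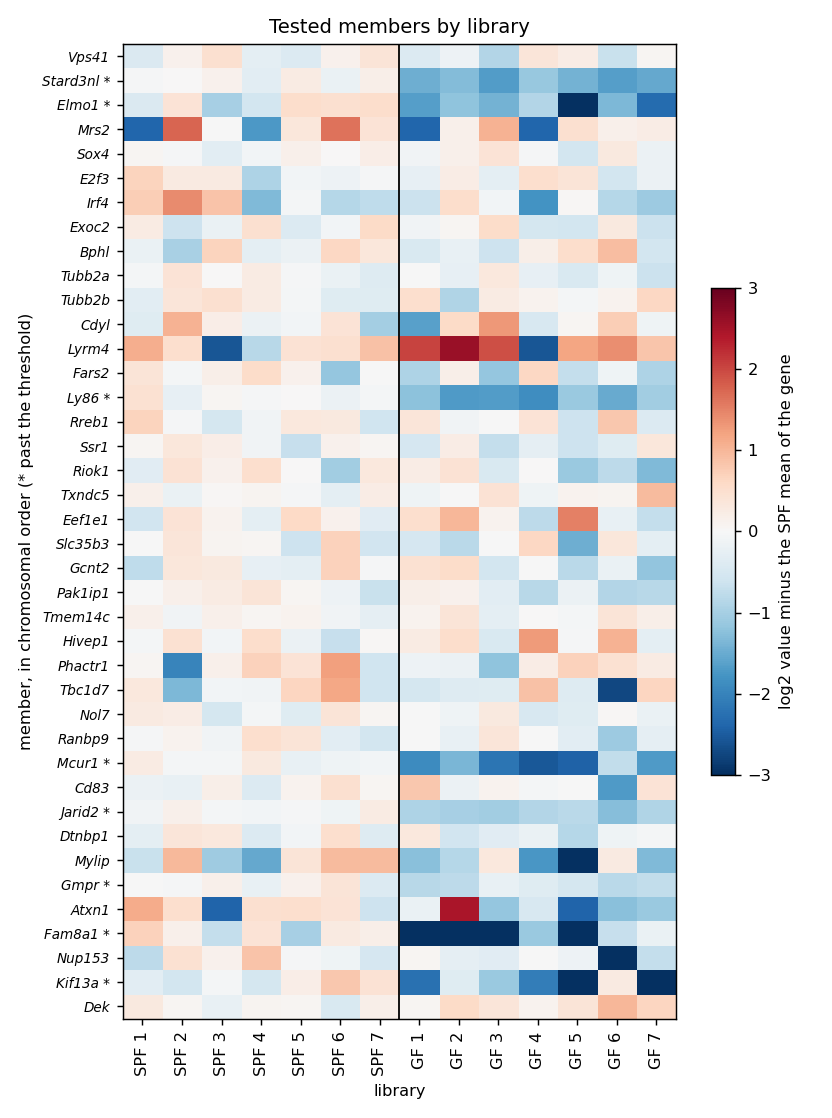
Each row is a tested member in chromosomal order and each column a library. Colour gives the log2 value minus the gene's SPF mean, from -3 (blue) to 3 (red), and an asterisk marks the 8 called members. Rows of Stard3nl, Ly86, Mcur1 and Jarid2 are blue in all 7 GF libraries, while most rows between Ly86 and Mcur1 show no split by group.

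In 4 of the 40 tested members, Stard3nl, Ly86, Mcur1 and Jarid2, all GF libraries lay below all SPF libraries, and in 0 all lay above. Over all genes tested this was so for 0.867% and 1.26%. Jarid2 and Mcur1 are separated in the order by Cd83, an activation marker of antigen-presenting cells, which ran from 35.9 to 68.4 in SPF and from 13.9 to 86.4 in GF. Cd83 thus showed wide overlap beside a pair of genes with none, at a log2 difference of -0.09 ± 0.28 (SE). Dtnbp1, which encodes dysbindin and follows Jarid2, had -0.26 ± 0.20 (SE).

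Called genes and long runs without a call alternated along the stretch. Over all genes tested, 3.02% were called lower and 3.65% higher, 51.5% had a negative difference and the median was -0.02. Between Vps41 and Dek the table held 82 tested genes, the 40 members and 42 others, of which 12 were called lower and 0 higher. In order from Vps41, successive blocks of 10 tested genes held 3, 0, 1, 2, 0, 1, 0 and 4 of them, and the last 2 genes held 1. None of the 19 tested genes between Ly86 and Mcur1 was called, 14 of which are members with a median of -0.17, and none of the 14 between Dusp22 and Ly86. From Mcur1 to Kif13a, 5 of 10 consecutive tested genes were called lower and all 10 had a negative difference, with a median of -0.82. The limits of that run were set after the values were seen, and no test was made of it. Fam8a1, counted among the 5, had met the filter only through SPF. In the rows kept, Ly86 stood alone, with 14 tested genes to the call before it and 19 to the call after it. The call before it, Dusp22, was lost with its rows summed. A scarcer row of Rreb1, just after Ly86, differed by -1.93 and was not tested.

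**Figure D3:**
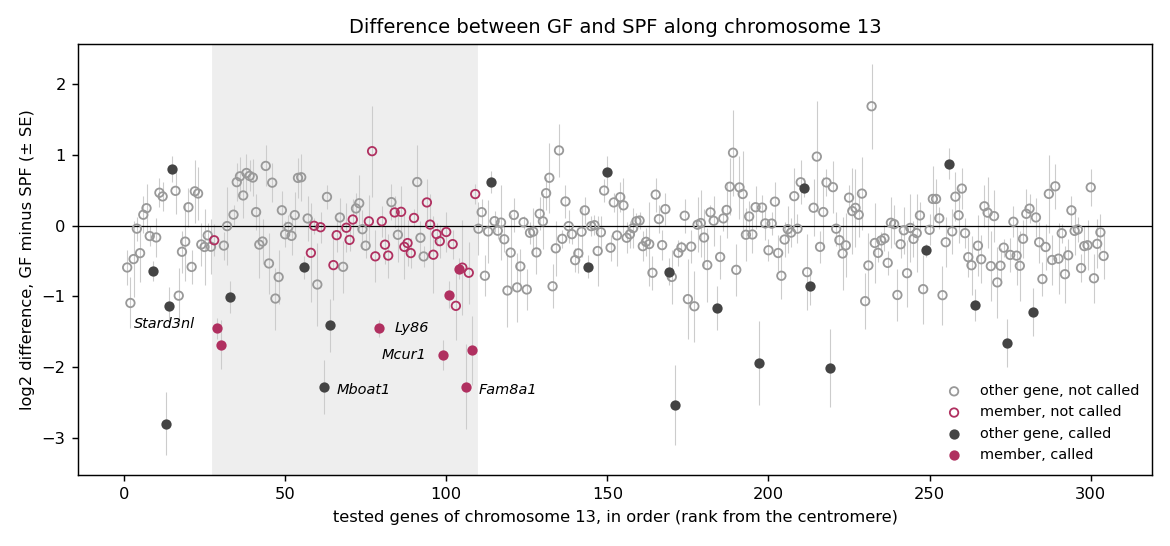
The log2 difference, GF minus SPF, with its SE for the 304 tested genes of chromosome 13 in order (rank on the horizontal axis). Shading runs from the first to the last member, filled points passed the threshold and members are red. All filled points of the shaded stretch lie below 0, toward its left and right ends, at Ly86 and, as dark points, around Mboat1, while filled points above and below 0 occur outside it.

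Among the 5 uncalled members from Mcur1 to Kif13a the values were variable. Mylip, which encodes the ubiquitin ligase that degrades the low-density lipoprotein receptor, had 54.6 ± 33.6 in SPF and 26.1 ± 20.6 in GF (n = 7 per group, ± SD), a log2 difference of -1.13 ± 0.48 (SE). Nup153, a nuclear pore gene, had 21.4 ± 8.85 and 14.7 ± 6.79 (n = 7 per group, ± SD), a difference of -0.67 ± 0.44 (SE). Atxn1, the gene of ataxin-1, had nearly equal means of 7.90 ± 4.82 and 7.87 ± 14.3 (n = 7 per group, ± SD) because GF 2 alone held 40.04, while its log2 difference was -0.59 ± 0.67 (SE). Tpmt, a methyltransferase gene that lies between Kif13a and Dek, was below the filter. It was listed at 0 in all 7 GF libraries and in 2 of 7 SPF libraries, where its highest value was 15.9. Mean depth was lower in GF, though the groups overlapped (exact permutation p = 0.0542, two-sided), and the part of depth in that pattern was not tested.

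Genes of the stretch that are not members were called too. Mboat1, a lysophospholipid acyltransferase gene, ran from 19.5 to 52.8 normalized counts in SPF and from 1.99 to 18.9 in GF, without overlap, a log2 difference of -2.28 ± 0.38 (SE, limma adjusted p = 0.000516). Dusp22, a dual-specificity phosphatase gene, lies just beyond the next tested gene and had -1.41 ± 0.37 (SE, limma adjusted p = 0.0221). That value is of its more abundant row, while its other row stood at 26.3 ± 7.85 in SPF and 29.03 ± 15.7 in GF (n = 7 per group, ± SD) and differed by 0.04. With both rows summed, Dusp22 had -0.55 and was not called (adjusted p = 0.166, and 0.0102 to 0.166 over 24 other settings), and it was also not called without GF 2. Zkscan3, a zinc finger gene soon after Elmo1, had -1.01 ± 0.23 (SE, limma adjusted p = 0.00712) with no overlap, and BC005537 had -0.59 ± 0.16 (SE, limma adjusted p = 0.0296), a call lost without any 1 of SPF 7, GF 1 and GF 5. Of the 42 non-members 9.52% were called lower, with a median of 0.05. They include 17 histone genes of the large cluster, 12 with a positive difference and 0 called, whose near-identical copies leave the values uncertain.

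Falls occurred beyond the proximal end, and none was among the first 20 tested genes beyond the distal end. The nearest tested genes before Vps41 were Yae1d1, with -0.30 ± 0.39 (SE), and Rala, with -0.14 ± 0.17 (SE). Vps41 itself, the first member and a subunit of the HOPS tethering complex of lysosomes, had -0.21 ± 0.22 (SE). Dek, the last member and the gene of a chromatin protein, had 0.45 ± 0.15 (SE), with 192 ± 32.1 in SPF and 264 ± 62.0 in GF (n = 7 per group, ± SD). Beyond Dek, Rnf144b had -0.04 ± 0.37 (SE) and Phf2 0.19 ± 0.18 (SE). Of the 20 tested genes before Vps41 3 were called lower and 1 higher, and of the 20 after Dek 0 and 1. Over all genes tested the shares were 3.02% lower and 3.65% higher. Ero1b, counted among the 3, met the filter only through SPF.

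Over the 195 tested genes after Dek, 5.64% were called lower, and over the 27 before Vps41, 11.1%. Among those called, Agtpbp1 and Pou5f2 after Dek and Ero1b before Vps41 met the filter only through SPF. Chromosome 13 as a whole had 26 of 304 tested genes called lower, or 8.55%, and 5 higher, with a median of -0.12. On the 19 other chromosomes the share called lower ran from 1.004% to 5.48% and the median from -0.12 to 0.08. Their share called higher ran from 1.05% on chromosome 16 to 11.7% on chromosome 18 (27 of 230), beside 1.64% on chromosome 13. Outside chromosome 13, 2.83% of 8458 tested genes were called lower. These shares describe the order of the calls, and no test of clustering was made.

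**Figure D4:**
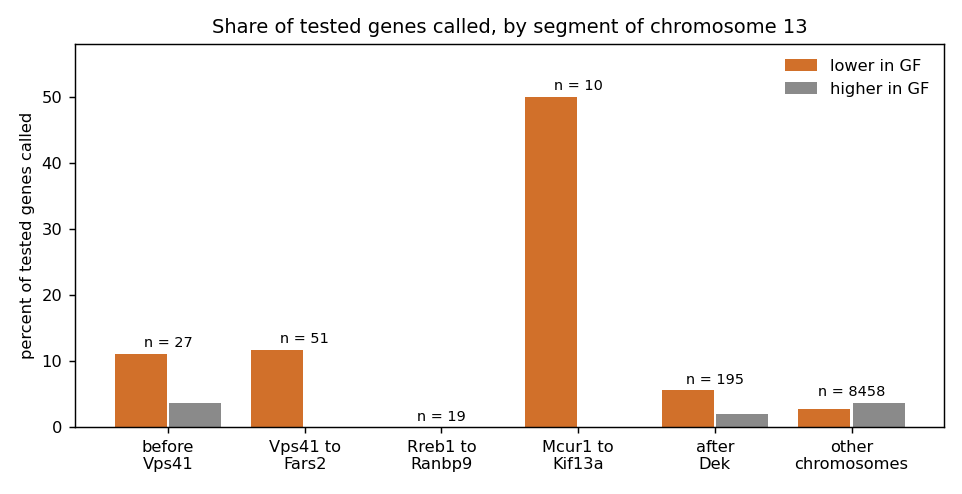
Percent of tested genes called lower (orange) or higher (grey) in GF, for consecutive segments of chromosome 13 and for all other chromosomes, with the number of tested genes above each pair. Ly86 and Dek fall between segments and are left out. Mcur1 to Kif13a has 5 of 10 genes called lower, and Rreb1 to Ranbp9 has 0 in both directions. Fam8a1, among the 5, met the filter only through SPF, as did Ero1b before Vps41 and Agtpbp1 and Pou5f2 after Dek.

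Among libraries of the same housing, the called members had correlations of both signs. After each group was centred on its own mean, the 28 pairs of the 8 called members had a median Pearson correlation of -0.03 over the 14 libraries, from -0.74 to 0.64. Consecutive tested members had a median of -0.08 over 39 pairs, and consecutive tested genes on all chromosomes 0.01 over 8734 pairs. These values share the same libraries and are given without a p.

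The remaining 32 tested members were not called, with 22 negative and 10 positive differences from -1.13 to 1.05. Among transcription factor genes, Sox4 stood at 1091 ± 126 in SPF and 1105 ± 236 in GF, and E2f3, a cell cycle regulator, at 80.2 ± 25.5 and 77.7 ± 21.7 (n = 7 per group, ± SD). Irf4, which directs lymphocyte and macrophage programmes, was scarce, at 13.4 ± 10.1 and 7.77 ± 4.73 (n = 7 per group, ± SD), and Hivep1, a zinc finger gene, had a log2 difference of 0.33 ± 0.33 (SE). Sox4 was the second most abundant member and differed by -0.003 ± 0.12 (SE). Lyrm4, whose product acts in iron-sulfur cluster assembly, had the highest difference, at 1.05 ± 0.64 (SE), with 9.35 ± 5.85 in SPF and 23.7 ± 15.9 in GF (n = 7 per group, ± SD). It was called higher without GF 4, whose value was 0, and Dek without any 1 of SPF 1, GF 1 and GF 4.

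Other uncalled members act in membrane traffic, folding and the secretory pathway. Exoc2, of the exocyst, had -0.14 ± 0.24 (SE). Ssr1, of the translocon-associated complex, had -0.27 ± 0.27 (SE), and Txndc5, a protein disulfide isomerase gene, 0.19 ± 0.23 (SE). Slc35b3, a transporter of the sulfate donor PAPS, had -0.30 ± 0.45 (SE) and Gcnt2, a glycan branching enzyme gene, -0.25 ± 0.33 (SE). Tbc1d7, a subunit of the TSC complex that restrains mTORC1, had -0.41 ± 0.54 (SE). Each of these groups overlapped.

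Ribosome and translation genes gave Riok1, a kinase of small subunit maturation, at -0.42 ± 0.31 (SE), Pak1ip1 at -0.39 ± 0.21 (SE), the nucleolar Nol7 at -0.12 ± 0.16 (SE) and Eef1e1, of the multisynthetase complex, at 0.20 ± 0.36 (SE). Mitochondrial members gave Mrs2, a magnesium channel, at -0.39 ± 0.70 (SE), Bphl, a hydrolase, at -0.03 ± 0.35 (SE) and Tmem14c, which acts in haem synthesis, at 0.11 ± 0.12 (SE). Ranbp9, a scaffold of a ubiquitin ligase complex, had -0.22 ± 0.23 (SE). None of these was called in any setting.

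Some members rest on shared or several rows. Tubb2a, at 166 ± 30.6 in SPF and 145 ± 32.2 in GF, and Tubb2b, at 24.1 ± 6.501 and 26.2 ± 8.13 (n = 7 per group, ± SD), are near-identical beta-tubulin genes, and the sources used here do not say how reads shared by both were counted. Cdyl, Fars2, Phactr1 and Rreb1 had rows with different values for different transcripts. In Cdyl, a chromodomain gene, the differences were 0.06 and -0.22, in Fars2 -0.43 and -0.41, and in Phactr1, a regulator of protein phosphatase 1 and actin, 0.01 and 0.04. Rreb1 had 3 distinct rows. The abundant pair differed by 0.06 and 0.01, while the third, at 30.5 ± 15.5 in SPF and 10.1 ± 10.2 in GF (n = 7 per group, ± SD), differed by -1.93.

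The 13 members below the filter had means of 0 to 7.20 normalized counts and were not tested. Aoah, which encodes the enzyme that deacylates lipopolysaccharide, was listed at 0 in every library. Gmnn, the gene of the replication inhibitor geminin, stood at 3.57 ± 1.74 in SPF and 6.16 ± 6.12 in GF (n = 7 per group, ± SD). Serpinb6a stood at 7.02 ± 4.85 and 6.71 ± 4.92, and Serpinb9, an inhibitor of granzyme B, at 4.35 ± 3.11 and 5.27 ± 5.11 (n = 7 per group, ± SD). Both belong to a cluster of similar protease inhibitor genes, so their values are uncertain. Nedd9, a scaffold gene of cell adhesion, was listed at 0 in 6 SPF and 5 GF libraries. Aldh5a1, Gpld1, Nqo2, Rpp40, Gfod1, Sirt5, F13a1 and Tpmt complete the group.

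Partners of MD-1 and other genes of lipopolysaccharide sensing lie outside the stretch. Of 9 tested, 1 was called higher and 0 lower, beside 3.65% and 3.02% of all genes tested, with a median of -0.02. The gene of its receptor, Cd180, on chromosome 13 but outside the stretch, ran from 758 to 1349 in SPF and from 626 to 1152 in GF, a log2 difference of -0.31 ± 0.13 (SE, limma adjusted p = 0.148). Cd14, a coreceptor gene for lipopolysaccharide, was the one that rose, by 0.48 ± 0.13 (SE, limma adjusted p = 0.0245), a call lost in 8 of 24 other settings, among them without any 1 of SPF 2, SPF 6, GF 2 and GF 7 (adjusted p 0.00473 to 0.126 over the 24). Tlr4 had 0.36 ± 0.31 (SE, limma adjusted p = 0.542), and Ly96, which encodes MD-2, the paralogue of MD-1, was below the filter at 5.52 ± 4.03 in SPF and 3.19 ± 1.97 in GF (n = 7 per group, ± SD).

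Of 13 tested genes of the ELMO, DOCK and Rac list, 1 was called lower and 1 higher, with a median of -0.28, beside 3.02% and 3.65% of all genes tested. The list also holds Elmo2 and DOCK genes whose products are not known to bind ELMO, Dock8 and Dock10 among them. Dock10, an exchange factor gene of another DOCK subfamily than Dock2, fell from 209 ± 23.8 to 139 ± 29.8 (n = 7 per group, ± SD), a log2 difference of -0.61 ± 0.14 (SE, limma adjusted p = 0.00836). Rhog, the GTPase that recruits ELMO, rose from 702 ± 147 to 963 ± 85.2 (n = 7 per group, ± SD), by 0.48 ± 0.11 (SE, limma adjusted p = 0.00798), a call lost under quantile normalization and without the mean trend. Dock2, the DOCK partner of ELMO1 in leukocytes, had -0.28 ± 0.11 (SE, limma adjusted p = 0.131), and its paralogue Elmo2 had -0.08 ± 0.15 (SE, limma adjusted p = 0.806). Rac1 had -0.23 ± 0.11 (SE, limma adjusted p = 0.205).

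**Figure D5:**
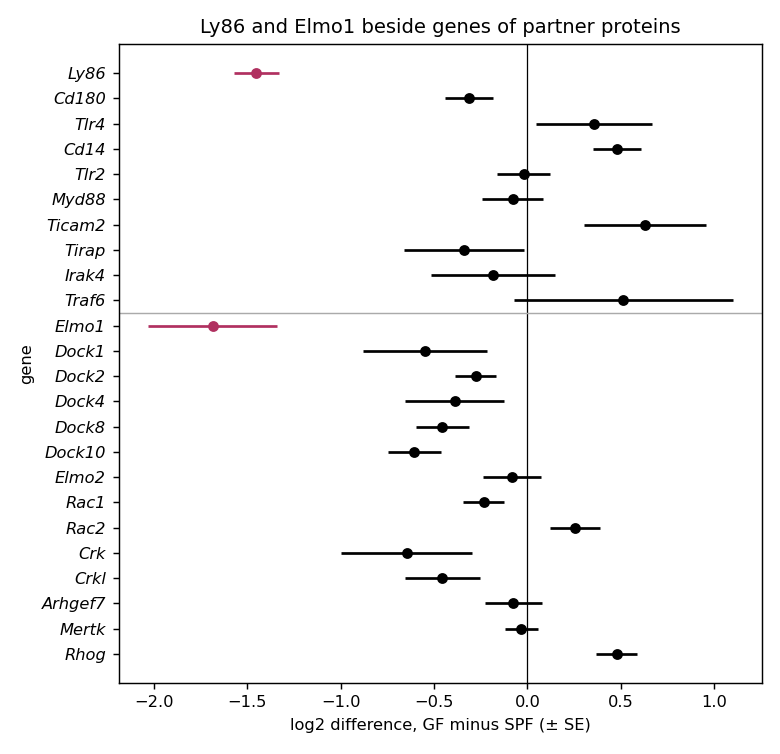
The log2 difference, GF minus SPF, with its SE for Ly86 above 9 genes of MD-1 partners and lipopolysaccharide sensing, and for Elmo1 above 13 genes of the ELMO, DOCK and Rac module. Ly86 at -1.45 and Elmo1 at -1.69 lie to the left of each gene listed under them. Both are members, chosen with this contrast known, so nothing is read from that order.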

How the data were processed

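Gene expression was measured in 14 libraries, 7 SPF and 7 GF, grouped by sample title. Per the submitters' processing notes, the authors aligned reads with TopHat to mm9. The tool versions, the counting, the use of strand and molecular tags, and the scaling remain unstated in those notes and in the labels. What the authors deposited is a signal for each RefSeq transcript, called normalized counts, with library totals of 1356633 to 1520780. Between 84.5% and 86.7% of the positive values per library were multiples of 1 step, within 0.01 of a read. The rest were not, so no count model was run. Depth in read equivalents is the total over genes divided by that step.

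The table held 18487 rows, of which 217 had no symbol. The row with the highest mean was kept for each of 14104 symbols. Genes were ordered along chromosomes by the RefSeq gene table of GRCm38.p6, where 18115 rows matched by accession, used for names and order alone. Differences are GF minus SPF on the scale of log2(value + 1.44), which understates the change of scarce genes. The 8762 genes whose mean reached 7.22, or 5 pseudocounts, entered a two-sided fit by limma 3.58.1 (R 4.3.3) in which the spread follows a trend with the mean, with Benjamini-Hochberg adjustment over these genes at 0.05. A gene is called lower or higher where it passed. P-values measure the spread between libraries, which may be technical. Exact permutation tests used scipy 1.17.1.

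The fit was tested on simulated data with known changes, with 1 setting of spread for all genes. It recovered 10% of rises by a factor of 1.5, 76% by 2 and 100% by 4. Of falls to a factor of 0.5 it recovered 60%, and 5.4% of its calls were of unchanged genes. A gene that was not called may therefore still differ. The members, lists and tests were chosen with earlier results of these data known. Named with values were the called members, those whose groups do not overlap, the ends with their neighbours, paralogue pairs, a set fixed by name, and partner genes that passed. Several uncalled members were added after their values were seen.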

Additional observations from a re-analysis of the deposited data

Results flagged for a closer look

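Among 80 groups of 7 libraries, 40 tested members in SPF and in GF, 3 held a library far from the rest, its gap to the next library exceeding Dixon's critical share of the group's range, where chance flags about 1 in 20 groups. Ly86 was highest in SPF 1, at 4439 normalized counts against 3390 in the next SPF library. Txndc5 was highest in GF 7, at 65.2 against 44.8 in the next GF library. Atxn1 was highest in GF 2, at 40.04 against 5.20 in the next.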

How the results depend on the processing

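Over 24 other settings, 14 of which left out 1 library each, 7 or 8 members were called lower, and the median of the members stayed between -0.30 and -0.18. None of the 8 called members, nor of the 11 other genes named as called, changed sign in these settings. BC005537 lost its call in 5 of the 24, Cd14 in 8, Dusp22 in 4, Rhog in 2 and Zmynd11 in 1, while Cd180 was called lower in 1, under quantile normalization (-0.45). Members called higher numbered 0 to 2 when 1 library was left out (2 without GF 4, 1 without GF 1 or SPF 1). Over all genes tested, calls of lower genes ran from 168 (without SPF 7) to 288 when 1 library was left out. Without GF 1, GF 6 and SPF 2 together, 165 genes were called lower and 153 higher against 265 and 320, and 2 non-members of the stretch against 4. Limma without the mean trend called 157 lower and 157 higher, and again 2 non-members. Upper-quartile scaling gave 335 lower and 243 higher, and quantile normalization 281 and 254, with 8 members called lower under each. Same-numbered SPF and GF libraries did not deviate together (correlations -0.06 to 0.05 over 7 pairs, 0 best with its own number), and the main fit did not pair them. Such correlations over all tested genes cannot exclude a link between libraries of the same number. With the number as a replicate block, 237 genes were called lower, 281 higher and 8 members lower, and Cd14 was not called (adjusted p = 0.0517). The cause of these shifts was not tested.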

Other observations

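Further toward the centromere from Vps41, 3 of 27 tested genes were called lower and 1 higher, beside 3.02% and 3.65% of all genes tested. Ero1b, an oxidase gene of the endoplasmic reticulum, fell from 26.5 ± 9.32 to 2.89 ± 2.52 normalized counts (n = 7 per group, ± SD), a log2 difference of -2.80 ± 0.44 (SE, limma adjusted p = 0.000299), and the groups did not overlap. Ero1b met the filter only through its SPF libraries, so its call and lack of overlap support nothing. Zmynd11, a chromatin reader gene, fell by 0.64 (limma adjusted p = 0.00642). Gpr137b-ps and Gpr137b, related sequences next to each other in the order, went opposite ways. The first fell from 43.7 ± 5.02 to 20.1 ± 6.51 (n = 7 per group, ± SD, limma adjusted p = 0.00812), without overlap between groups. Gpr137b rose from 43.2 ± 10.04 to 75.3 ± 10.2 (n = 7 per group, ± SD, limma adjusted p = 0.00905). The sources used here do not say how reads shared by such copies were counted, and both values are uncertain.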
